A study of Mus musculus with 53 samples.

Results

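Lung tumours started by a vector against Setd2 were compared with tumours started by an inert vector in KLTC mice, 9 weeks after the virus was given. The members were the rows of the deposited tumour-size table that belong to mice labelled KLTC-Setd2 (n = 7) or KLTC-Neo (n = 5), which are 12 of the 53 mice and 21152 of the 409584 listed tumours. By the usual naming of such strains, L marks an Lkb1 allele that Cre deletes, C an allele of Cas9 and T a fluorescent reporter, so the design that all 12 mice share deletes Lkb1 in the cells that take up the virus. The lentivirus entered the lung through the trachea and carried Cre, 1 sgRNA and a barcode, so each tumour bore the barcode of the vector that began it. Mice of the KLTC-Neo group had received Lenti-sgNeo, whose guide is inert, and those of the KLTC-Setd2 group Lenti-sgSetd2#2, so Setd2 was targeted by a single guide. DNA came from whole lungs, the age and sex of the mice and the virus dose are not given in the labels used here, and the cut of Setd2 in each tumour was not measured by these files. The comparison addresses whether loss of Setd2 still enlarges tumours where Lkb1 is already gone.

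Setd2 encodes the histone methyltransferase that places the trimethyl mark on lysine 36 of histone H3 along transcribed genes, a mark read by factors of splicing, DNA repair and DNA methylation. Lkb1 is the kinase that activates the AMPK family and restrains growth when energy is short. Both genes are tumour suppressors in lung adenocarcinoma, and loss of Lkb1 alone is known to speed its growth.

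Every measure of size was on average higher with sgSetd2, but none passed its test, and mice given the same vector differed far more than the vectors did. The log-normal mean size is the mean of a log-normal distribution with the mean and variance of the log sizes of the mouse. It was 2.57-fold higher with sgSetd2, with a 95% interval from 0.130-fold to 49.9-fold. The total of listed cells per mouse was 2.96-fold higher (interval 0.488-fold to 18.0-fold) and the number of listed tumours 1.12-fold higher (0.403-fold to 3.18-fold). By two-sided exact permutation of the mouse labels with Benjamini-Hochberg adjustment over 20 measures, 0 passed at 0.05, 0 had an unadjusted p under 0.05, and the adjusted p ran from 0.717 to 0.896. The smallest unadjusted p that 7 against 5 mice allow is 0.00253. After adjustment over 20 measures, 1 measure alone at that value would still miss 0.05. A call therefore needed low p values in more than 1 measure.

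A barcode of 21 bases identifies each tumour, with 6 bases fixed by design in 90.2% of the rows and 15 that vary. The barcodes below are the largest tumour of each group, which shows how far single tumours reached, and 3 of the barcodes listed in the most of the 12 mice, which show how one barcode recurs between mice. A single barcode was listed in 7 sgSetd2 mice and 64 in 6, and of these 64 the 2 with the largest listed size are shown, 1 of them the largest sgSetd2 tumour. Capitals mark the fixed bases, and each sequence is written 5′ to 3′ as the table has it.
Largest sgNeo tumour: AAaagtcTTcggtcAAggctg
Largest sgSetd2 tumour: AActatcTTacggtAAgtaga
Listed in 7 of 7 sgSetd2 mice: AAgtccaTTacacaAAggggg
Listed in 6 of 7 sgSetd2 mice: AAgtggaTTgttgcAAccata

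The barcode of the largest sgNeo tumour was listed at 2119899 cells in replicate 5, and also in the other 4 sgNeo mice at 9753, 6192, 4705 and 34010 cells in replicates 1 to 4. The barcode of the largest sgSetd2 tumour was listed at 14953547 cells in replicate 2, and in 5 further sgSetd2 mice at 549397, 10403, 30252, 14919 and 24800 cells in replicates 1, 3, 5, 6 and 7. The barcode present in all 7 sgSetd2 mice ranged from 787 cells in replicate 3 to 576099 cells in replicate 2, with 24200, 201391, 2880, 1217 and 1497 cells in replicates 1, 4, 5, 6 and 7. Each of these barcodes was thus listed in several mice at sizes that differed by more than 100-fold. The barcode ending in ccata had 3585050 cells in replicate 2 and 161838 in replicate 1, against 2729, 12317, 5491 and 5097 in replicates 3, 5, 6 and 7. No barcode was listed with both vectors: the number shared between the sgNeo and the sgSetd2 rows was 0. Each mouse listed tumours of its own vector only, so this 0 is no test of reads passing between libraries.

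Barcodes recurred often enough to touch the comparison, so libraries that shared them are described first. Of 9030 distinct barcodes in the sgSetd2 mice, 73.3% were listed in 1 of these mice and 17.6% in 2, and of 5628 in the sgNeo mice 70.0% and 15.97%. The sgNeo replicates 4 and 5 shared 261 barcodes, which are 77.4% of those listed in replicate 5 and 8.81% of those in replicate 4. Their sizes ran in parallel, with a Spearman rho of 0.81 over the 261 barcodes, and replicate 5 was at the median 56.6-fold larger. The sgSetd2 replicates 1 and 2 shared 328 barcodes, 38.6% of those of replicate 2 and 9.84% of those of replicate 1, with a rho of 0.74 and sizes that were at the median 22.1-fold larger in replicate 2. Across the 10 pairs of sgNeo mice rho ran from -0.10 to 0.81 with a median of 0.41, and across the 21 pairs of sgSetd2 mice from -0.33 to 0.74 with a median of 0.06. These rho values describe barcodes within pairs of libraries, which share the vector, and carry no test. Whether reads passed between these libraries was not tested, and what the shared listings, numbers and largest tumours of these mice stand for depends on it. The main results below are also given without sgNeo replicate 5 or without sgSetd2 replicate 1. The choice was not the same in both pairs: at the median, replicate 5 held the larger sizes of its pair and replicate 1 the smaller. Leaving out either mouse raised the vector difference in log-normal mean size and lowered that in tumour number. With each mouse left out in turn, the difference in log-normal mean size ran from 0.65 to 2.77 (log2), against 1.36 with all mice.

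**Figure D1:**
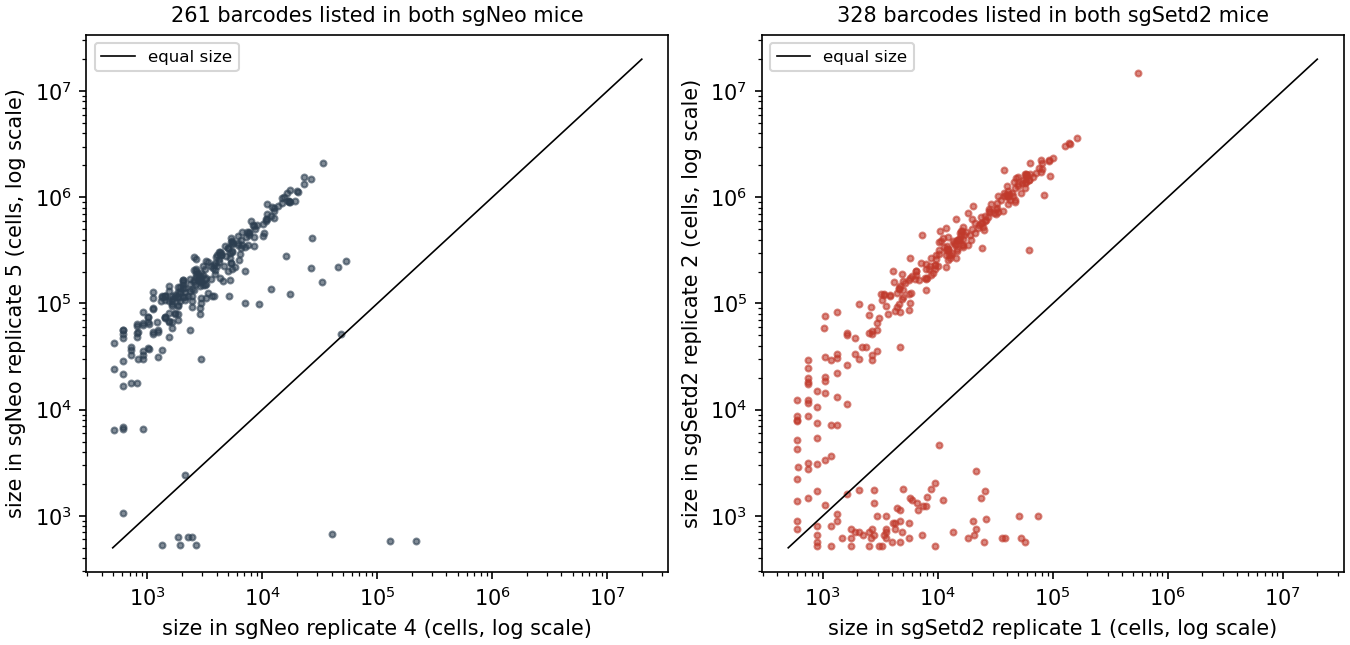
Sizes in cells (both axes, log scale) of the barcodes listed in both mice of a pair, a point per barcode, with the line of equal size: sgNeo replicates 4 and 5 (left, 261 barcodes) and sgSetd2 replicates 1 and 2 (right, 328 barcodes). Most points form a band above the line, at a median of 56.6-fold on the left and 22.1-fold on the right.

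The table gives sizes in cells and no reads, but its values kept their own count. Within a mouse, tumours whose barcodes held the same number of G and C bases differed by whole multiples of a fixed step, for 100% of 67994 differences in 18 mice given single vectors (these 12 and 6 KPTC mice, described further on), within 0.02 of a step. The remainder above the whole number depended on the number of G and C bases alone, from 0.025 to 0.174 of a step, and was equal in all 18 mice. One step, taken here as the worth of 1 read, was 26.4, 67.2, 162, 101 and 48.1 cells in sgNeo replicates 1 to 5. In sgSetd2 replicates 1 to 7 it was 147, 47.0, 97.1, 255, 472, 110 and 51.4 cells. A read thus stood for more cells in some mice than in others, and the step did not differ between the vectors beyond its spread (1.84-fold higher with sgSetd2, two-sided exact permutation p = 0.210).

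The same steps gave the number of reads that lay in listed tumours. This sum rises with the listed cells as well as with sequencing depth, so it does not measure depth alone. Listed tumours summed to 920291, 60138, 9883, 218981 and 1415626 reads in sgNeo replicates 1 to 5. In the sgSetd2 mice the sums were 117985, 3170879, 334532, 198065, 9961, 1142292 and 522514 reads in replicates 1 to 7. The vectors did not differ in this sum beyond the spread (1.61-fold, two-sided exact permutation p = 0.672). The tumour of median size rested on 4 reads in sgSetd2 replicate 5 and on 5 in sgNeo replicate 3, against 2401 reads in sgNeo replicate 5 and 527 in sgSetd2 replicate 6. An exact Poisson interval around 4 reads in sgSetd2 replicate 5 spans 515 to 4835 cells, and around 2401 reads in sgNeo replicate 5 it spans 110956 to 120247 cells, for counting error only. The smallest listed tumour was at 500.4 to 590.0 cells in 11 mice and at 956.1 cells, 2 reads, in sgSetd2 replicate 5. A size of 5000 cells was at least 10.6 reads in every one of the 12 mice, so values above it had that depth or more.

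Tumour number varied more within each vector than between the vectors. The sgNeo mice had 1618, 2366, 1131, 2962 and 337 listed tumours in replicates 1 to 5. The sgSetd2 mice had 3332, 850, 462, 1813, 2019, 1186 and 3076 in replicates 1 to 7. The groups overlapped over nearly their whole range, and the lowest number belonged to an sgNeo mouse and the highest to an sgSetd2 mouse. The difference, sgSetd2 minus sgNeo, was 0.17 ± 0.67 (log2, SE) with a 95% interval from -1.31 to 1.67 (two-sided exact permutation p = 0.785). It was -0.33 without sgNeo replicate 5 and -0.02 without sgSetd2 replicate 1, so the sign rested on single mice. The virus dose is not in the labels, and the number is given as listed.

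The middle of the size distribution was low in most mice and very high in a few. The median tumour held 951, 1018, 825, 1328 and 115533 cells in sgNeo replicates 1 to 5. In sgSetd2 replicates 1 to 7 it held 1187, 1368, 3749, 2566, 1926, 57841 and 931 cells. All but 1 mouse of each group lay at or under 3749 cells, and sgNeo replicate 5 and sgSetd2 replicate 6 lay far above their groups. The difference was 0.14 (95% interval -3.02 to 3.38, two-sided exact permutation p = 0.780). With sgNeo replicate 5 left out it rose to 1.50, with an unadjusted exact permutation p of 0.0485 and an adjusted p of 0.253. Without sgSetd2 replicate 6 it was -0.59.

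The difference between group means was larger at the upper percentiles than at the median. That at the median depended on sgNeo replicate 5, without which it was 1.50. Of all pairs of an sgSetd2 and an sgNeo mouse, the sgSetd2 mouse was higher in 68.6% at the median. This percent was again 68.6% at the 95th percentile and was 62.9% at the 75th. The 95th percentile was 79268, 5047, 4219, 32786 and 833354 cells in sgNeo replicates 1 to 5. With sgSetd2 it was 25359, 1072987, 349798, 142737, 5712, 384293 and 52954 cells in replicates 1 to 7. Of the 7 sgSetd2 mice, 4 exceeded 4 of the 5 sgNeo mice and 1 exceeded all 5. The difference was 0.69 at the 75th percentile, 1.23 at the 90th, 1.65 at the 95th and 1.72 at the 99th (log2). For the 95th the 95% interval ran from -2.23 to 5.45 (two-sided exact permutation p = 0.346), and the value was 2.80 without sgNeo replicate 5 and 1.99 without sgSetd2 replicate 1. With each mouse left out in turn, it ran from 0.89 to 2.80. The 95th percentile divided by the median, a measure of how stretched the distribution is, was 2.97 to 785 with sgSetd2 and 4.96 to 83.4 with sgNeo, a difference of 1.51 (exact permutation p = 0.298).

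**Figure D2:**
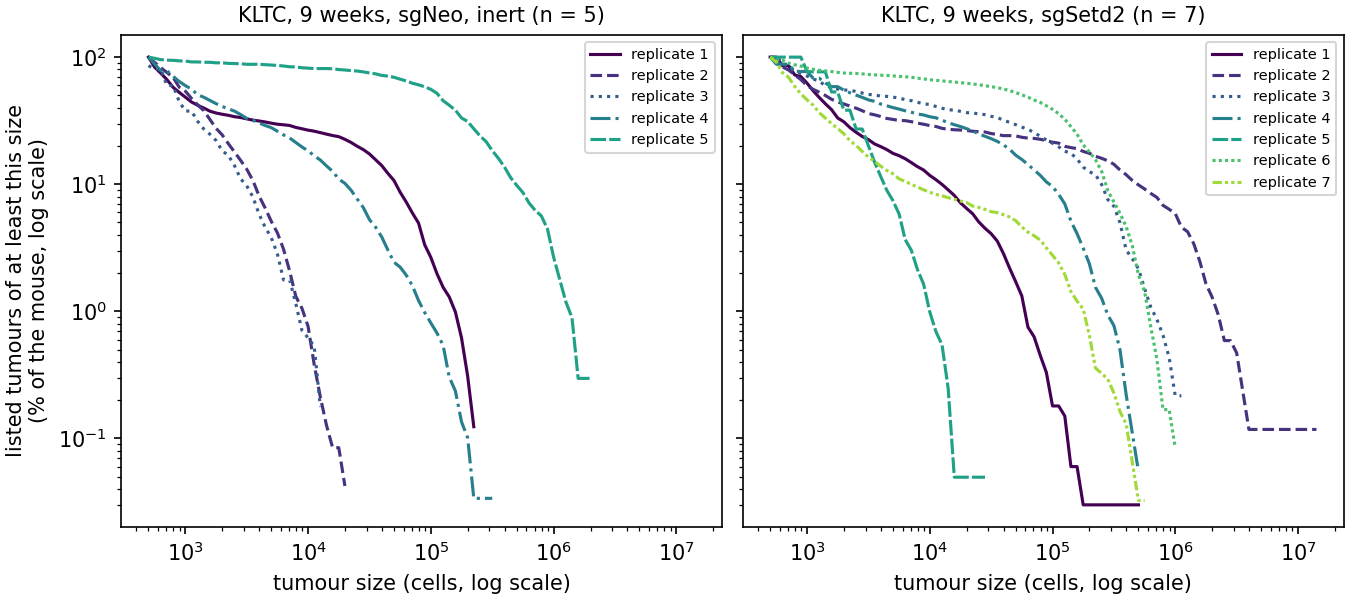
Percent of a mouse's listed tumours (vertical axis, log scale) that held at least the number of cells on the horizontal axis (log scale), a line per mouse, for the 5 sgNeo mice (left) and the 7 sgSetd2 mice (right). Lines of the same vector separate by more than 100-fold in size at the same percent, with sgNeo replicate 5 far right and sgNeo replicates 2 and 3 and sgSetd2 replicate 5 far left.

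The log-normal mean size combined these features. It was 13249, 1630, 1339, 5931 and 472495 cells in sgNeo replicates 1 to 5. It was 3615, 171215, 115775, 29053, 2309, 319334 and 3573 cells in sgSetd2 replicates 1 to 7. This measure grows with the variance of log size, so small tumours can raise it as well as large ones. In sgNeo replicate 5 and sgSetd2 replicate 6 it lay above the 90th percentile of listed sizes, 471274 and 267564 cells. In the other mice it lay below that percentile. It is therefore not the plain average of the listed sizes. The log-normal means fell within 353-fold of each other with sgNeo and within 138-fold with sgSetd2, and no sgSetd2 mouse lay above all sgNeo mice. The difference was 1.36 ± 1.90 (log2, SE), with a two-sided exact permutation p of 0.482. It was 2.77 without sgNeo replicate 5 (exact permutation p = 0.127, adjusted 0.253), 1.82 without sgSetd2 replicate 1, 0.89 without sgSetd2 replicate 2 and 0.74 without sgSetd2 replicate 6.

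Tumours of at least 10000 cells made up 26.6%, 0.761%, 0.619%, 18.3% and 81.9% of the listed tumours in sgNeo replicates 1 to 5. They made up 11.7%, 28.9%, 42.4%, 34.0%, 0.991%, 66.4% and 8.65% in sgSetd2 replicates 1 to 7. The group means were 25.6% ± 33.4 (SD, n = 5) and 27.6% ± 22.7 (SD, n = 7), nearly equal beside the spread (exact permutation p = 0.897). Counts above a fixed size do not depend on how many small tumours were listed. The number of at least 10000 cells differed by 1.29 in log2(number + 1) (exact permutation p = 0.359). The share of at least 100000 cells differed by 1.54 points (exact permutation p = 0.854). Tumours of at least 100000 cells numbered 43, 0, 0, 24 and 188 in sgNeo replicates 1 to 5 and 6, 182, 97, 174, 0, 460 and 85 in sgSetd2 replicates 1 to 7. More than 80 such tumours were listed in 5 of 7 sgSetd2 mice and in 1 of 5 sgNeo mice, and the difference in log2(number + 1) was 2.13 (95% interval -2.37 to 6.41, exact permutation p = 0.280). It was 3.14 without sgNeo replicate 5 (exact permutation p = 0.139), and ran from 1.25 to 3.14 with each mouse left out in turn.

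Tumours of at least 1000000 cells were listed in 3 sgSetd2 mice and 1 sgNeo mouse. There were 50 in sgSetd2 replicate 2, 1 each in replicates 3 and 6, and 9 in sgNeo replicate 5, and no other mouse of the 12 had any. The difference in log2(number + 1) was 0.43 (exact permutation p = 0.813), and -0.33 without sgSetd2 replicate 2. The 3 mice that listed no tumour of 100000 cells, sgNeo replicates 2 and 3 and sgSetd2 replicate 5, also had the 3 lowest sums of listed reads. That sum is made from the listed sizes, so a low sum goes with small tumours in part by construction. Cells per read were 67.2, 162 and 472 in these 3 mice. They were 97.1, 255 and 110 in sgSetd2 replicates 3, 4 and 6, which listed many tumours of at least 100000 cells. Whether depth had a part in the sizes of the 3 mice was not tested.

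Total listed cells gave the smallest p after the largest tumour. The totals were 2.43e+07, 4.06e+06, 1.61e+06, 2.23e+07 and 6.81e+07 cells in sgNeo replicates 1 to 5. With sgSetd2 they were 1.73e+07, 1.49e+08, 3.25e+07, 5.05e+07, 4.79e+06, 1.25e+08 and 2.69e+07 cells in replicates 1 to 7. In 5 of 7 sgSetd2 mice the total exceeded that of 4 of the 5 sgNeo mice, and 2 exceeded all 5. Geometric means were 3.53e+07 cells with sgSetd2 and 1.19e+07 with sgNeo, a log2 difference of 1.57 (95% interval -1.03 to 4.17, two-sided exact permutation p = 0.192, adjusted 0.717). Without sgNeo replicate 5 it was 2.19 (exact permutation p = 0.0727, adjusted 0.253) and without sgSetd2 replicate 2 it was 1.22.

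The largest tumour of a mouse held 235323, 21118, 13113, 340825 and 2119899 cells in sgNeo replicates 1 to 5. It held 549397, 14953547, 1143258, 556263, 30252, 1101910 and 575399 cells in sgSetd2 replicates 1 to 7. In 6 of 7 sgSetd2 mice it was larger than in 4 of 5 sgNeo mice, and 1 exceeded all 5. This was the measure with the lowest p, a 5.28-fold difference (log2 2.40, 95% interval -1.36 to 5.84, two-sided exact permutation p = 0.159, adjusted 0.717). Without sgNeo replicate 5 it was 3.39, with an unadjusted exact permutation p of 0.0485 and an adjusted p of 0.253. With each mouse left out in turn, the log2 difference ran from 1.56 to 3.39. The largest tumours of sgSetd2 replicates 1 and 5 carried the barcode of the largest tumour of replicate 2, printed above, which was 27.2 and 494 times larger there, whereas none of the 5 sgNeo mice had such a largest tumour.

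The tumour ranked 10th in size showed a difference of 1.79 and that ranked 100th 1.70 (exact permutation p = 0.260 and 0.220), so the gap was not in the largest tumour alone, though none of these passed. The largest tumour held 10.03% of all listed cells in sgSetd2 replicate 2 and 0.520% to 3.52% in the other 11 mice. The 10 largest tumours held 26.3% in sgSetd2 replicate 2, 21.8% in replicate 3 and 19.1% in sgNeo replicate 5, and 3.23% to 13.9% in the others. Means of this share were 12.7% ± 8.52 (SD, n = 7) with sgSetd2 and 9.29% ± 5.86 (SD, n = 5) with sgNeo (exact permutation p = 0.457).

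**Figure D3:**
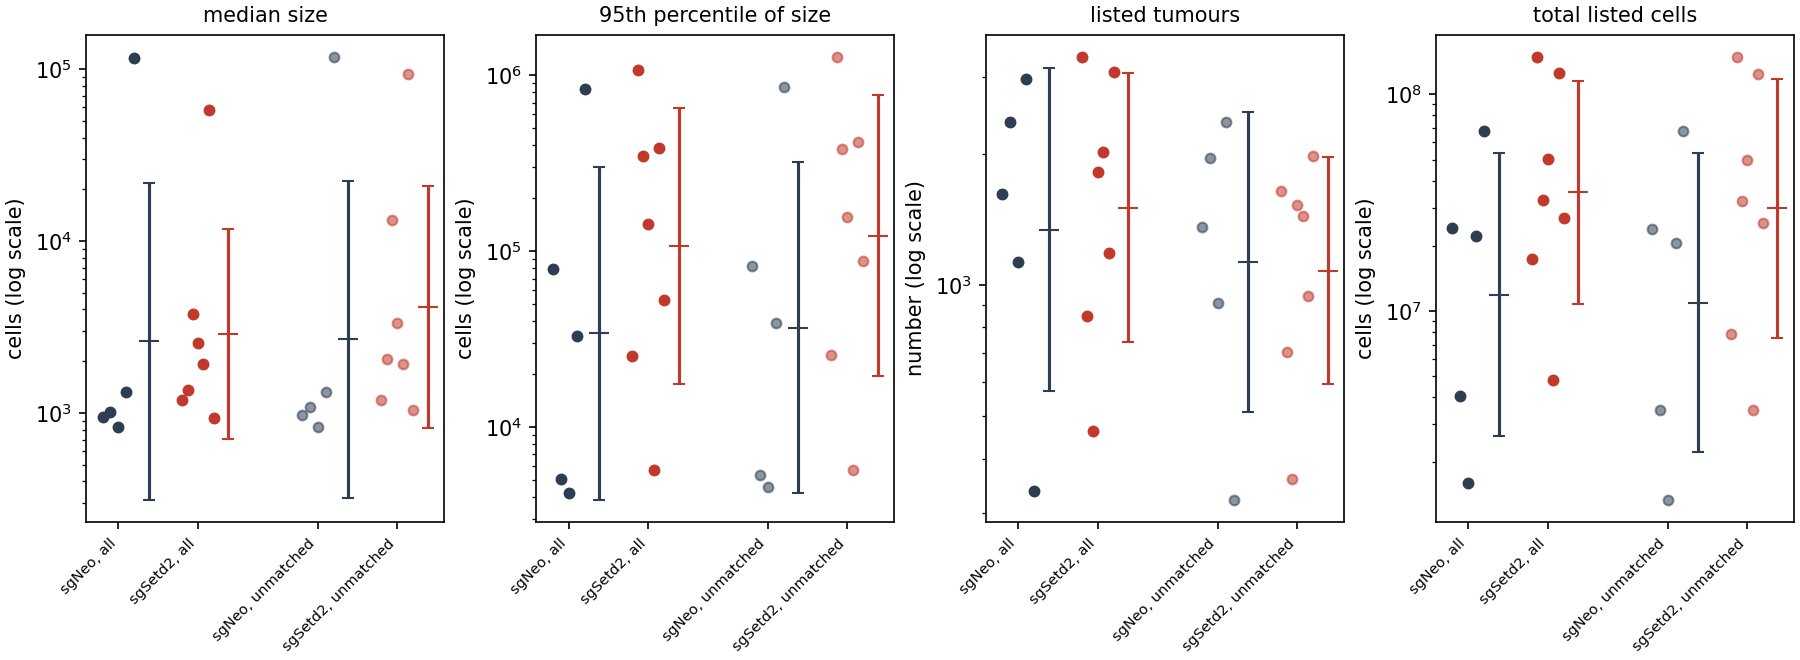
Median size, 95th percentile of size, number of listed tumours and total listed cells per mouse (vertical axes, log scale), a point per mouse, for sgNeo (dark, n = 5) and sgSetd2 (red, n = 7), from all listed tumours and, in paler colour, without matched tumours; the bar beside each group is the geometric mean with 1 SD of the log2 values. Points of both vectors overlap in every panel, and the median of sgNeo replicate 5 (115533 cells) stands far above the other 4 sgNeo mice.

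A tumour is called matched here when its target and barcode were listed at 10 times its size or more in another mouse of the series. Matched tumours were 16.1%, 17.4%, 19.5%, 20.02% and 4.45% of those listed in sgNeo replicates 1 to 5. They were 50.7%, 17.5%, 22.3%, 15.9%, 28.6%, 20.4% and 35.7% in sgSetd2 replicates 1 to 7. The highest sgNeo share lay below 5 of the 7 sgSetd2 shares. The means were 15.5% ± 6.38 (SD, n = 5) and 27.3% ± 12.4 (SD, n = 7). A tumour can be matched only where its vector is listed in other mice, and these lists differed by design, with 12738 KLTC-Setd2 and 44339 KPTC-Setd2 tumours against 8414 KLTC-Neo and 8970 KPTC-Neo tumours, so the shares are given as a description with no test of the vectors. The share whose barcode was listed in any other mouse, at whatever size, was 69.8% to 91.4% with sgNeo and 69.4% to 86.9% with sgSetd2.

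Matched tumours were mostly small. Among tumours under 1000 cells, 17.9% to 47.8% were matched in the sgNeo mice and 24.1% to 72.2% in the sgSetd2 mice. Among tumours of at least 10000 cells the share was 0.464%, 5.56%, 14.3%, 6.26% and 0.362% in sgNeo replicates 1 to 5, and under 3% in 5 of the 7 sgSetd2 mice. It was 52.2% in sgSetd2 replicate 1, where 204 of 391 such tumours were matched and 54.8% of all listed cells lay in matched tumours. In sgSetd2 replicate 6 matched tumours had a median of 8 reads and unmatched ones 852.5, and in sgNeo replicate 5 the medians were 12 and 2447.5 reads. In sgSetd2 replicate 5 both medians were 4 reads, so the gap in reads was not shared by all mice.

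**Figure D4:**
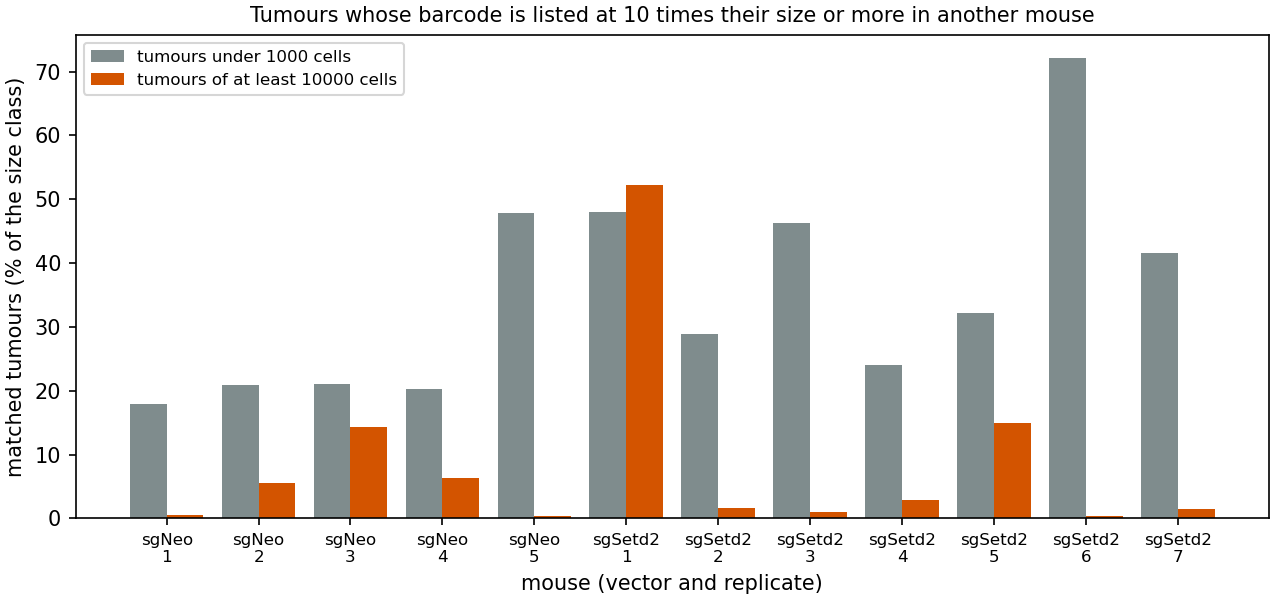
Matched tumours as a percent of the listed tumours of a size class (vertical axis), for tumours under 1000 cells (grey bars) and of at least 10000 cells (orange bars), in each of the 12 mice (horizontal axis, vector and replicate). The grey bars exceed the orange ones in every mouse but sgSetd2 replicate 1, where the orange bar reaches 52.2%.

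The larger listing of a matched barcode was mostly in a mouse with the same single vector. For the sgNeo mice 72.0% of 1502 matched tumours had it in another KLTC-Neo mouse and 8.26% in a KPTC-Neo mouse. For the sgSetd2 mice 47.5% of 4148 had it in another KLTC-Setd2 mouse and 40.7% in a KPTC-Setd2 mouse. KPTC mice carry a p53 allele that Cre deletes in place of Lkb1, and received the same vectors. The single mouse that most often held the larger listing was KLTC-Neo replicate 5 for sgNeo replicates 1, 3 and 4 and KPTC-Setd2 replicate 2 for sgSetd2 replicates 1, 2, 4, 5 and 7. Barcodes 1 base away from one that was 10 times larger in the same mouse were at most 17 in any mouse, 0.553% of the tumours of sgSetd2 replicate 7.

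Leaving out matched tumours kept the picture of wide overlap. The median tumour then held 977, 1082, 825, 1329 and 117774 cells in sgNeo replicates 1 to 5. In sgSetd2 replicates 1 to 7 it held 1186, 2072, 13317, 3335, 1930, 93466 and 1034 cells, so it moved most in replicates 3 and 6. The difference in the median became 0.63 (exact permutation p = 0.664) and that in the log-normal mean 1.61 (p = 0.399, exact permutation). Totals fell most in sgSetd2 replicate 1, from 1.73e+07 to 7.84e+06 cells, and the difference in total cells was 1.44 (exact permutation p = 0.278). The number of tumours was 1357, 1954, 910, 2369 and 322 in the sgNeo mice and 1643, 701, 359, 1525, 1441, 944 and 1977 in the sgSetd2 mice, a difference of -0.07 against 0.17 before. Of the 20 measures 19 were higher and 1 lower with sgSetd2, 0 passed, and 0 had an unadjusted exact permutation p under 0.05. The filter did not treat the vectors alike, since the lists in which a match could be found differed. Among tumours under 1000 cells, a mean of 41.9% were matched with sgSetd2 and 25.6% with sgNeo. How far this moved the differences was not tested.

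**Figure D5:**
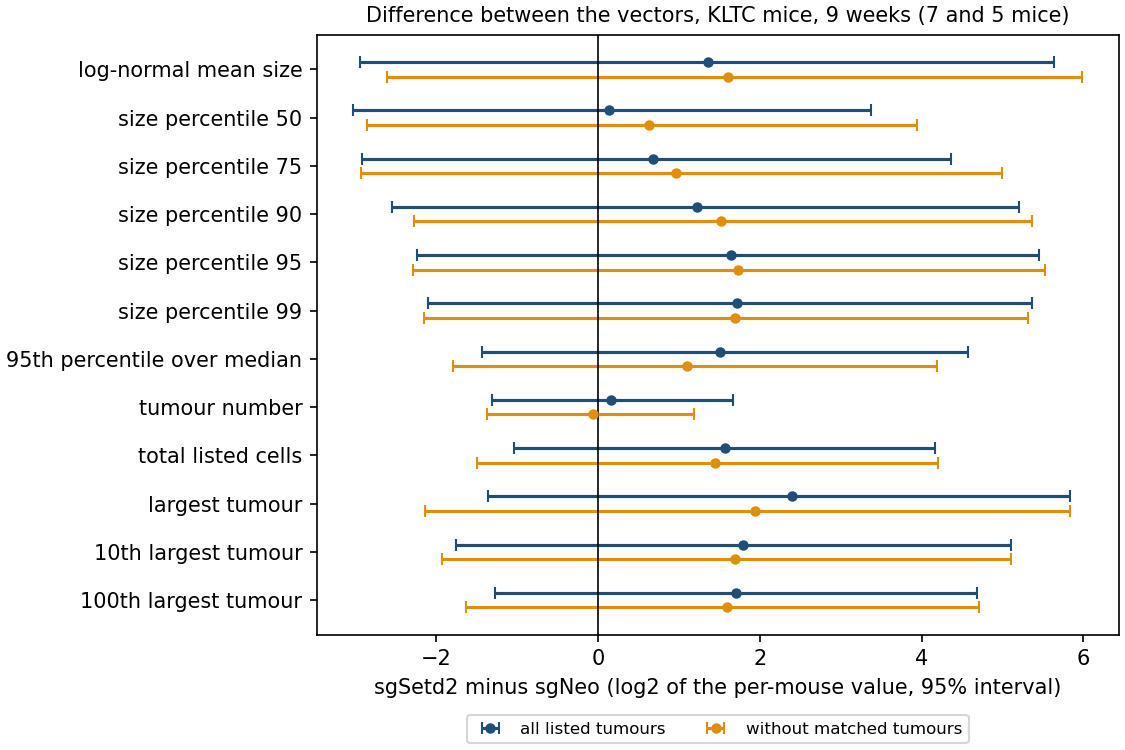
Difference between the vectors, sgSetd2 minus sgNeo, in log2 of the per-mouse value (horizontal axis) for 12 measures (vertical axis), with the 95% interval from inverting the exact permutation test, from all listed tumours (blue) and without matched tumours (orange). Every interval includes 0, and 12 of 12 blue points lie right of 0, from 0.14 to 2.40.

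A stricter filter left out every tumour whose barcode was listed in any other mouse, whichever listing was larger. It kept 29 to 894 tumours in the sgNeo mice and 64 to 727 in the sgSetd2 mice, and it removed large tumours too, since the barcode of the largest tumour was listed elsewhere in 11 of the 12 mice. The highest log-normal mean with sgNeo fell from 472495 to 12947 cells, and the geometric mean of the largest tumour with sgSetd2 from 719906 to 56719 cells. The log-normal mean then differed by 0.26 (95% interval -1.96 to 2.98, exact permutation p = 0.884), against 1.36 with all tumours. Total cells differed by 0.68 and the largest tumour by 1.04. Of 17 measures that could be computed, 15 were higher and 2 lower with sgSetd2, and 0 passed (0 with an unadjusted exact permutation p under 0.05). With tumours of at least 5000 cells only, where every mouse had 10 reads or more per tumour, the log-normal mean differed by 1.53 (exact permutation p = 0.283) and the median by 1.12 (p = 0.323, exact permutation).

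Over the 12 mice, those with more listed tumours had the smaller log-normal mean. Pearson's r between the log2 values was -0.75 (permutation p = 0.00480, adjusted 0.0146 over 4 relations computed) and Spearman's rho -0.59 (permutation p = 0.0484, adjusted 0.124). Among the 11 mice whose names share the prefix ZR r was -0.74, and within the 7 sgSetd2 mice -0.80. Without the 2 mice farthest from the median number, r was -0.59 (n = 10, permutation p = 0.0738), so the relation rests in part on them. Number and mean come from the same list of tumours. Total listed cells had an r of -0.36 with the number (permutation p = 0.256).

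The same vectors were given to KPTC mice, and the difference between genotypes was tested directly. In KPTC mice (n = 3 and 3) sgSetd2 minus sgNeo was 1.51 ± 0.89 for the log-normal mean, 2.40 ± 1.02 for the 95th percentile and 2.09 ± 0.72 for tumour number (log2, SE). Their exact permutation p values were 0.2, 0.2 and 0.1, where 0.1 is the smallest that 3 against 3 mice allow. The KLTC difference minus the KPTC difference was -0.15 for the log-normal mean, -0.75 for the 95th percentile and -1.93 for tumour number (exact permutation within genotype, p = 0.941, 0.736 and 0.141, adjusted 0.941, 0.941 and 0.422). For tumour number it was -2.42 without sgNeo replicate 5 (exact permutation p = 0.0415, adjusted 0.125). No difference between the genotypes passed. The 95% intervals of the KLTC values held the KPTC value for the log-normal mean and the 95th percentile. For tumour number the KLTC interval ended at 1.67, below the KPTC value of 2.09. That value has its own SE of 0.72, so the interval does not compare the genotypes. The direct test, which does, did not pass for tumour number (exact permutation p = 0.141, adjusted 0.422).

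In other KLTC mice, given a pool of vectors and taken at 15 weeks (n = 13), Setd2 tumours were set against inert tumours of the same mouse. The log2 ratio was 0.12 ± 0.50 (SD) for the log-normal mean, above 0 in 9 of 13 mice. It was 0.02 ± 0.22 for the median (8 of 13) and 0.11 ± 0.98 for the 95th percentile (10 of 13). Without matched tumours the ratios were 1.07 ± 0.82 (11 of 13), 0.77 ± 1.12 (13 of 13) and 0.58 ± 1.03 (11 of 13). The filter does not treat the 2 targets alike. Single-vector mice listed 12738 and 44339 Setd2 tumours (KLTC and KPTC) against 8414 and 8970 inert ones. Small Setd2 tumours could thus be matched and left out more readily than small inert ones. How far this moved the ratios was not tested, so they are not read as an effect of Setd2. Time and design differ from the 9-week mice, so the values stand side by side with no comparison.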

How the data were processed

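The authors amplified the barcodes of whole-lung DNA by PCR and sequenced 1 library per mouse, per the labels' protocols. Their deposited table lists mouse, target, barcode and tumour size as an absolute number of cells, with no header. Neither the standard behind that scale nor the aligner or barcode clustering is given in the sources. All listed sizes of at least 500 cells were used. The log-normal mean was exp(m + 0.5 v), with m and v the mean and variance of the natural log of size. Values were averaged over mice on the log2 scale (shares as percent, numbers as log2 of the number plus 1). Groups were compared by two-sided exact permutation over 792 relabellings (numpy 2.4.6, scipy 1.17.1, pandas 2.3.3), adjusted by Benjamini-Hochberg, and intervals came from inverting that test. The correlations used 100000 permutations. Steps between sizes were found by least squares within each mouse and number of G and C bases. The permutation test of the log-normal mean and the matching rule were checked on simulated data. The simulated mice differed far less than the real ones (SD of log2 2.99 with sgSetd2 and 3.42 with sgNeo). The check therefore says nothing about power at the spread seen here.

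The members, measures and alternatives were chosen with earlier results of these data known. Named were only Setd2, the largest tumour of each group and the 3 barcodes listed in the most of the 12 mice, with ties broken by the largest listed size. Replicates are numbered in accession order. The mice are separate animals by their labels. Of the 12 mice 11 carry the name prefix ZR and sgSetd2 replicate 1 the prefix IW, whose meaning is not given. The alternatives were minimum sizes, filters on shared barcodes, the largest tumour left out, medians over mice, and each mouse left out. A further alternative kept only tumours of the vector's own target, and these were all of them. Leaving out matched tumours together with a 5000-cell minimum, a 3-fold match and designed barcodes only were added after the data were seen, as were the correlations and the steps.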

Additional observations from a re-analysis of the deposited data

Results flagged for a closer look

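Among 44 sets of values of 1 group and measure, 10 held a mouse whose gap to its nearest neighbour, over the range of the group, exceeded Dixon's 95% critical value. For independent sets of normal values chance would give about 1 in 20, but these sets overlap: shares and numbers of tumours of at least 1000000 cells repeat each other, and in the sgNeo group 4 of 5 such values are 0. In the sgNeo group replicate 5 stood apart. Its median size of 115533 cells compared with 825 to 1328 in the other 4 mice, and 55.8% of its tumours held at least 100000 cells against at most 2.66%. It had 9 tumours of at least 1000000 cells, 2.67% of its list, against 0 in the others. Its share of matched tumours, 4.45%, was the lowest, below 16.1% to 20.02%.

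In the sgSetd2 group replicate 2 had 50 tumours of at least 1000000 cells, 5.88% of its list, where the other 6 mice had at most 1. Its largest tumour held 10.03% of its cells, against 0.632% to 3.52%. Replicate 6 had a median of 57841 cells against 931 to 3749. Replicate 5 had 20 tumours of at least 10000 cells against 196 to 788.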

How the results depend on the processing

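Of 255 values of the 20 measures under 13 other settings, 245 kept their direction and 10 turned, and none of the 255 passed its test (lowest adjusted p 0.487, exact permutation). Among these settings, the limit to tumours of the vector's own target removed no tumour. Its 20 values repeat the main ones and kept their direction by construction. The difference in the median (0.14) was -0.12 with a minimum of 1000 cells and -0.18 above 956.1 cells, the highest of the 12 smallest listed sizes. That in tumour number (0.17) was -0.067 without tumours matched at 10-fold in any mouse, -0.070 in a 9-week mouse and -0.094 at 3-fold in any mouse. The number of tumours of at least 10000 cells differed by -0.053 between medians. The share of cells in the largest tumour differed by -1.17 points without shared barcodes. That in the 10 largest differed by -2.73 with a minimum of 5000 cells, -2.64 with that minimum and no matched tumours, and -0.52 without shared barcodes. The genotype difference in the log-normal mean (-0.15) was 0.032, 0.29 and 0.46 with minimums of 1000, 1500 and 5000 cells, 0.18 above the same kind of common minimum over 18 mice, 0.45 by medians, 0.37 with the 5000-cell minimum and no matched tumours, and 0.026 at 3-fold. In the 15-week mice the Setd2 ratio moved to 1.07 for the log-normal mean and 0.77 for the median without matched tumours, and with a minimum of 1000 cells to -0.16 for the median (7 of 13 mice above 0) and -0.11 for the 95th percentile (8 of 13). The cause of these turns was not tested.

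With each mouse left out in turn, 240 values gave 19 turns, and none passed (lowest adjusted p 0.253, exact permutation). Differences ranged from 0.65 to 2.77 for the log-normal mean, -0.59 to 1.50 for the median, 0.03 to 1.88, 0.51 to 2.33, 0.89 to 2.80 and 0.97 to 2.79 for the 75th, 90th, 95th and 99th percentiles, and 0.78 to 2.18 for the 95th over the median. They ranged from -0.33 to 0.45 for tumour number, 0.85 to 2.19 for total cells, and 1.56 to 3.39, 1.0004 to 2.72 and 0.95 to 2.46 for the largest, 10th and 100th tumour. Numbers of at least 10000, 100000 and 1000000 cells gave 0.38 to 1.90, 1.25 to 3.14 and -0.33 to 1.10, and the shares -4.53 to 16.01, -2.69 to 12.52 and -0.48 to 0.88 points. The shares of cells in the largest and the 10 largest tumours gave 0.52 to 2.11 and 1.12 to 5.83 points. Genotype differences ranged from -0.86 to 1.26 for the log-normal mean, -1.57 to 0.40 for the 95th percentile and -2.42 to -1.29 for tumour number, with 7 turns among 54 values and none past the test.

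Under a minimum of 5000 cells or without shared barcodes, some mice had under 100 tumours, so the 100th largest had no value, and without shared barcodes no tumour of 1000000 cells was left. No paired analysis was possible because the replicate numbers follow accession order and pair no mice. Reads per listed tumour limit small sizes most: 91.0% of the tumours of sgSetd2 replicate 5 and 75.2% of those of sgNeo replicate 3 rested on fewer than 10 reads.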
